A study of Mus musculus with 38 samples.

Results

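The 9 genes described here are known from keratinocytes, the cells of the epidermis and hair follicle: Krt5, Krt14, Krt6a, Krt6b, Krt16, Krt17, Trp63, Dlx3 and Tgm3. They were chosen by name on their higher RNA levels with BMP4 in JGES cells, a contrast of these same data, so their values in that contrast are a description and support nothing. All 9 are among the 35976 genes of an FPKM table of 17 libraries and the 37108 genes of an FPKM table of 8 libraries, and 8 of them (all but Krt6b) are among the 20695 genes of a single-cell UMI table.

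The study followed mouse embryonic fibroblasts (MEFs) under retroviral transcription factors. The MEFs came from E13.5 embryos of male OG2 mice, which carry an Oct4-GFP reporter, crossed to 129S4/SvJaeJ females. JGES denotes Jdp2, Glis1, Esrrb and Sall4, JGE leaves out Sall4, JGEO is JGE with Oct4, and JGESO is JGES with Oct4. These cells were grown in iCD3, a chemically defined reprogramming medium, without BMP4 (BMP4-) or with BMP4 at 10 ng/ml (BMP4+), for up to 7 days. Other MEFs received a single factor, full-length SALL4 (SALL4-WT) or SALL4 without its N-terminal 12 residues (SALL4-delN12), and no BMP4, for up to 11 days in iCD3. Every condition has 1 sample, so no difference below has a replicate check and no test was made. Organs, tail, limbs and head were removed before the MEFs were made, and no source used here says that skin was removed.

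Keratins form intermediate filaments in which a type I keratin pairs with a type II keratin. KRT5 (type II) and KRT14 (type I) are the pair of the basal epidermal layer, whereas KRT6A and KRT6B (type II) with KRT16 and KRT17 (type I) mark the hair follicle, nails and wounded epidermis. TRP63 (p63) is the transcription factor on which stratified epithelium depends, DLX3 is a homeodomain factor of the upper epidermis, hair and placenta, and TGM3 is a transglutaminase that cross-links proteins of the cornified layer and hair shaft. In early ectoderm, BMP signalling is known to favour epidermal over neural fate.

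The genes lie in few places in mm10 (GENCODE vM21). The type II keratins are neighbours on chromosome 15, all on the minus strand: Krt5 (ENSMUSG00000061527) at chr15:101707070-101712898, Krt6a at chr15:101689910-101694307 and Krt6b at chr15:101676023-101680287. The type I keratins are on the minus strand of chromosome 11, with Krt14 (ENSMUSG00000045545) at chr11:100203162-100207548, Krt16 at chr11:100246091-100248902 and Krt17 at chr11:100256217-100261029. Dlx3 is on the plus strand of the same chromosome at chr11:95120119-95125296. Tgm3 is at chr2:130012349-130050399 (+) and Trp63 at chr16:25683763-25892102 (+). Near-identical stretches make some members hard to count apart. Of the 100-base stretches in their transcripts, 34.0% of Krt6a and 30.6% of Krt6b also occur in another gene, mostly in each other, and 24.3% of Krt16, mostly in Gm11597. The share was 2.38% for Krt5 and 2.88% for Krt14, and none was found for Krt17, Trp63, Dlx3 or Tgm3. The levels of Krt6a, Krt6b and Krt16 are therefore uncertain by an unknown amount.

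Promoters were taken from RefSeq (GRCm38.p6, 250 bases before to 50 after a start site), where entries at the annotated gene start were found for Krt5 and Tgm3. They are shown because Krt5 had the highest level among the member keratins in JGES with BMP4 and Tgm3 had peaks at its start. Capitals mark any match, on either strand, to TATAAA (the TATA box), TGANTCA (AP-1), GCCNNNGGC (TFAP2), TAATTA (homeodomain) or AATATT (AT-rich). The Krt5 promoter is chr15:101712856-101713155 on the minus strand, and the Tgm3 promoter is chr2:130012090-130012389 on the plus strand.
Krt5: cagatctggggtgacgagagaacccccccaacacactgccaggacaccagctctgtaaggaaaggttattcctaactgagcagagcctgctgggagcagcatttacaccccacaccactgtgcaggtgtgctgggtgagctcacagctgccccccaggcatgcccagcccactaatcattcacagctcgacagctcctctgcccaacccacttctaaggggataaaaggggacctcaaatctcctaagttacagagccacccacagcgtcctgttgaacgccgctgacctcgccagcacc
Tgm3: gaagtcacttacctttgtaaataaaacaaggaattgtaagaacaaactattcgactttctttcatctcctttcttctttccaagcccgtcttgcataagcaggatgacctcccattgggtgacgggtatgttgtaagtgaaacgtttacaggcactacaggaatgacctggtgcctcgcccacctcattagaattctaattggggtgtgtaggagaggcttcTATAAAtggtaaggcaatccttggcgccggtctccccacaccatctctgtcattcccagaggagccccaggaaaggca
The Tgm3 promoter holds TATAAA, with its first base at -28 from the RefSeq start. This motif occurs in 14.2% of 27025 promoters of 300 bases. The Krt5 promoter holds none of the 5 motifs in these exact letters.

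Which members differed with BMP4, and when, was read from the JGES time course. Values are FPKM, read fragments scaled to transcript length and library size, and a change is the difference of log2(FPKM + 1), BMP4+ minus BMP4-. A gene was called raised or lowered at a difference of at least 1. This scale understates changes of low genes, and a gene listed at 0 gets no fold. Raised members numbered 0 of 9 on day 1, 1 on day 3, 4 on day 5 and 7 on day 7, and none was lowered on any day at this pseudocount. Among genes that reached 1 FPKM with or without BMP4, 3.75%, 6.81%, 8.78% and 10.3% were raised on those days, and 5.72%, 8.99%, 13.2% and 13.8% were lowered. Because the members were picked with this contrast known, nothing is read from the excess. In bulk RNA, fewer cells of a type and less RNA per cell cannot be told apart.

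**Figure D1:**
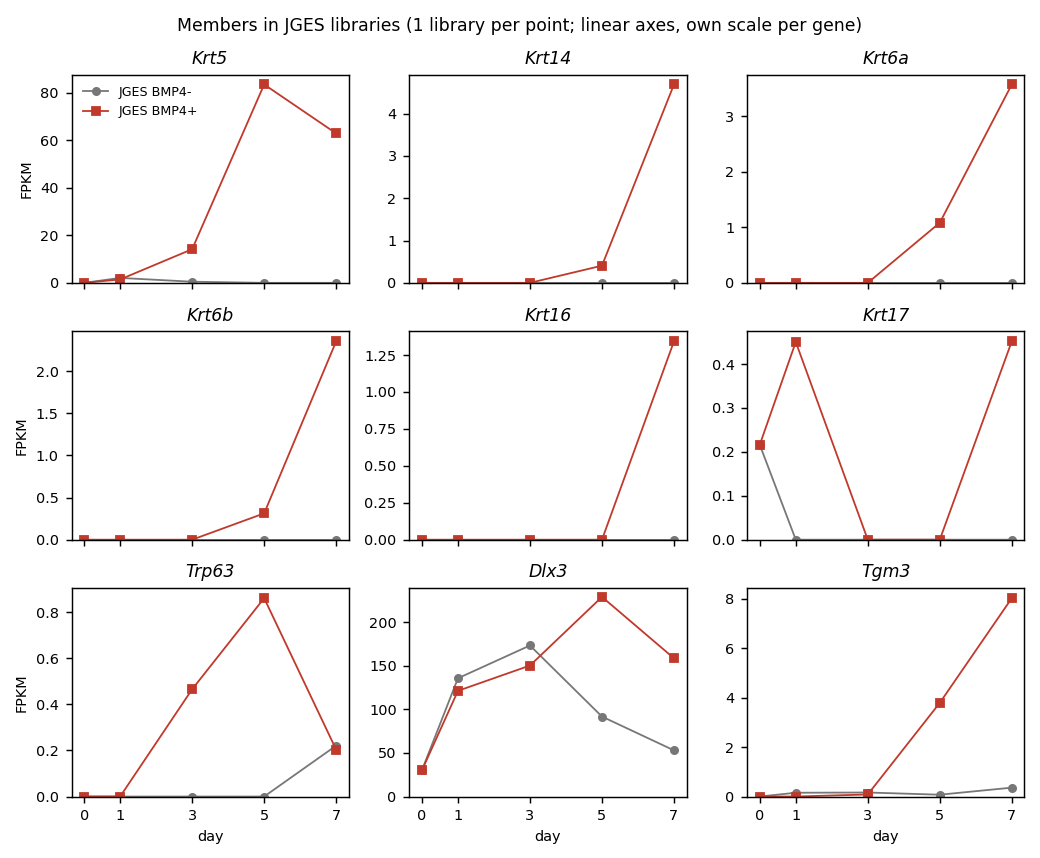
FPKM (linear axis, scaled per gene) of the 9 members against day in JGES libraries without BMP4 (gray circles) and with BMP4 (red squares), 1 library per point, starting from the shared day 0 library. Krt5 reached 83.6 FPKM on day 5 with BMP4, Krt14 appeared late, and Trp63 stayed under 1 FPKM in every library.

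Among the regulators, Trp63 was not called on any day. Without BMP4 it was listed at 0 FPKM on days 0, 1, 3 and 5 and at 0.221 on day 7. With BMP4 it was 0 on day 1, 0.466 on day 3, 0.861 on day 5 and 0.204 on day 7. No JGES library reached 1 FPKM, and the day 7 difference was -0.02. With a pseudocount of 0.1 in place of 1, Trp63 was called raised on days 3 and 5 (2.50 and 3.27).

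Dlx3 was the most abundant member in each JGES library. It stood at 30.2 FPKM on day 0 and, without BMP4, at 136, 173, 91.7 and 52.9 on days 1, 3, 5 and 7. With BMP4 it was 121, 150, 229 and 158 on the same days. Dlx3 thus rose from day 0 to day 1 in both conditions, and the conditions parted only later. The BMP4+ minus BMP4- difference was -0.16 and -0.20 on days 1 and 3, and 1.31 and 1.56 on days 5 and 7.

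Krt5 was the first of the member keratins to be called at the pseudocount of 1, on day 3, while at 0.1 Krt17 was called on day 1 (2.46). Without BMP4 it was listed at 0 on day 0, at 2.08 FPKM on day 1, at 0.474 on day 3 and at 0 on days 5 and 7. With BMP4 it was 1.44, 14.2, 83.6 and 63.0 on days 1, 3, 5 and 7. The day 3 difference was 3.37. Its partner Krt14 was listed at 0 in every BMP4- library and in the BMP4+ libraries of days 1 and 3. It reached only 0.406 FPKM on day 5 and 4.69 on day 7 with BMP4. FPKM is per length, so the levels can be compared between genes: Krt5 exceeded Krt14 in each BMP4+ library.

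The keratins of follicle and wound stayed low, and those other than Krt17 came later. Krt6a, Krt6b and Krt16 were listed at 0 in all 5 libraries without BMP4. With BMP4, Krt6a was 1.08 FPKM on day 5 and 3.57 on day 7, and Krt6b was 0.312 and 2.35. Krt16 was seen only on day 7, at 1.34. Krt17 did not pass the call: it was 0.450 on day 1 and 0.452 on day 7 with BMP4, 0.216 on day 0, and listed at 0 in the other libraries.

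Tgm3, the cross-linking enzyme, was between 0 and 0.360 FPKM in the BMP4- libraries and the day 0 library. With BMP4 it was listed at 0 on day 1, 0.0842 on day 3, 3.79 on day 5 and 8.03 on day 7. The differences were 2.16 on day 5 and 2.73 on day 7.

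Genes that define an epidermal cell were checked beside these. Krt1 was listed at 0 in both day 7 libraries, and Krt10, its partner in the suprabasal layer, was 1.58 FPKM with BMP4 and 1.4 without. Col17a1, a collagen of basal keratinocytes, was 0.253 and 0.275. Itga6, the integrin alpha chain of hemidesmosomes, was 33.4 and 17.7 FPKM, and its partner Itgb4 was 2.204 and 0.778. Trp63, Krt1 and Col17a1 were thus near 0, while Krt5, Krt15 and several cornified genes given below were higher with BMP4, so the markers were mixed and no cell type is named from them. Col1a1, the fibroblast collagen, was 361 FPKM with BMP4 and 20.2 without on day 7, and 4 of 8 fibroblast genes were raised. The part of fibroblasts in the members' levels was not tested.

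Lists of other cells moved as well. All 6 pluripotent genes were lowered on day 7, among them Nanog (60.5 to 1.82 FPKM) and Dppa5a (527 to 19.2), and of 12 simple epithelium genes 7 were raised, among them the claudin Cldn6 (17.3 to 85.5), and 1 was lowered. Of the primitive endoderm genes, Dab2 (9.82 to 72.6 FPKM), Sox17 (3.1 to 12.6) and Pth1r (7.78 to 18.4) were raised, while Gata4, Gata6 and Lama1 were not called. The part of these lists in the members' levels was not tested.

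The epidermal lists moved in part. On day 7, 3 of 15 basal adhesion genes were raised and 0 lowered, with a median difference of 0.24. The raised ones included Krt15 (0 to 2.65 FPKM), a basal and follicle keratin, and Perp (7.42 to 17.5), a desmosome protein. Of 18 suprabasal and cornified genes, 8 were raised and 0 lowered (median 0.54), led by Tgm1 (0.353 to 12.1 FPKM), the transglutaminase of the cornified envelope, Ivl (0 to 4.87) and Sfn (2.36 to 16.97). Of 15 surface ectoderm factors, 5 were raised and 1 lowered (median 0.53): Msx2, a BMP-responsive homeobox gene, went from 4.23 to 47.4 FPKM, Grhl1 from 0.2 to 3.59, and Tfap2c from 13.6 down to 1.89. Of 11 hair follicle genes, 3 were raised and 1 lowered (median 0), led by Krt71 (0 to 21.1), a keratin of the inner root sheath, Tchh (0.393 to 13.1) and Krt27 (0 to 3.14). The median over all genes tested was -0.14. Of 6 BMP target genes, 5 were raised, among them Id1 (65.0 to 240 FPKM) and Smad6 (9.27 to 53.2).

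Keratins outside the members were also called. Of 21 other keratins with at least 1 FPKM in either day 7 library, 16 were raised and 0 lowered, among them Krt8 (8.02 to 75.6 FPKM) and Krt18 (48.2 to 148), the pair of simple epithelia. Within JGES, Krt71 followed a course near that of Krt5, at 5.47, 14.8, 39.5 and 21.1 FPKM on days 1, 3, 5 and 7 with BMP4 and between 0 and 2.07 without it. Under other factors the 2 genes differed: with BMP4 on day 7, Krt71 was 26.3 and Krt5 1.47 FPKM in JGE, and 3.57 and 89.6 in JGESO.

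Whether the members differ with BMP4 under other factors was asked in JGE, JGEO and JGESO at day 7, in a table that also holds the day 7 JGES libraries. The median ratio of the copies to the first table was 0.975 without and 0.978 with BMP4. In the copies the same 7 members were raised and none lowered (10.2% and 13.7% of genes tested). JGESO, with Oct4 added to JGES, had the same number raised, 7 of 9, against 5.29% of all genes tested. JGE had 2 (4.28%) and JGEO 1 (2.26%). Those shares cover genes that reached 1 FPKM, as 8 members did in JGESO and 2 in each of JGE and JGEO. With a pseudocount of 0.1 the counts were 8, 4 and 3, and the shares above belong to the pseudocount of 1 only. At the pseudocount of 1 no member was lowered in JGE, JGEO or JGESO, where 4.78%, 1.95% and 3.52% of genes were. The differences between the sets were not tested.

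**Figure D2:**
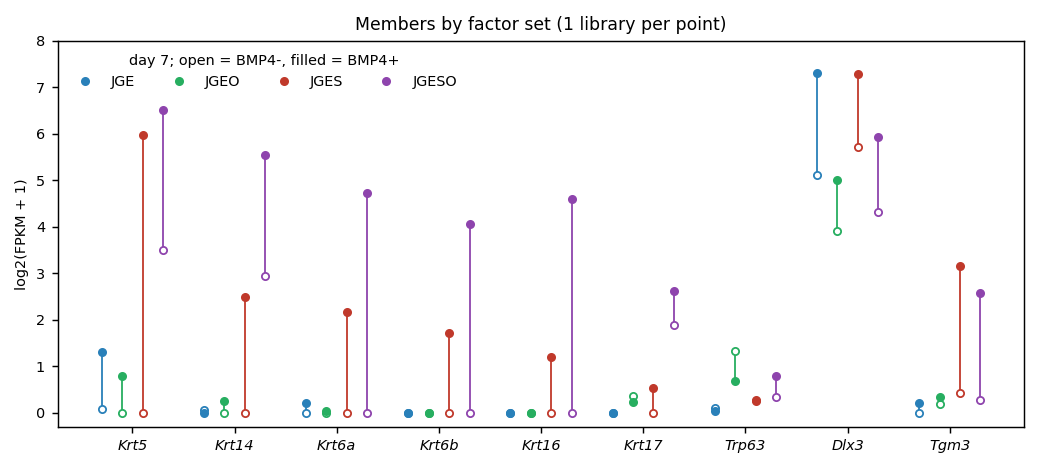
log2(FPKM + 1) of the 9 members at day 7 for JGE, JGEO, JGES and JGESO, open circles without and filled circles with BMP4, 1 library per point. Krt14, Krt6a, Krt6b and Krt16 were raised at a pseudocount of 1 in JGES and JGESO and not in JGE or JGEO, while Dlx3 was raised in all 4; at 0.1, Krt6a was raised in JGE (1.35) and Krt14 in JGEO (1.59).

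Dlx3 was the member called in every set. It went from 33.6 to 157 FPKM with BMP4 in JGE, from 14.1 to 31.0 in JGEO and from 19.0 to 59.7 in JGESO. Krt5 was 0.0575 without and 1.47 with BMP4 in JGE, and 0 and 0.725 in JGEO, where it missed the call. In JGESO it was 10.3 without BMP4 and 89.6 with it.

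JGESO with BMP4 held the highest levels of Krt14, Krt6a, Krt6b and Krt16 in either table, and each table was scaled on its own. Krt14 went from 6.73 to 45.5 FPKM, and it was at most 0.201 in the JGE and JGEO libraries. Krt16 was listed at 0 without BMP4 and at 23.0 with it, Krt6a at 0 and 25.6, and Krt6b at 0 and 15.8. Krt6b and Krt16 were listed at 0 in all 4 JGE and JGEO libraries, and Krt6a was at most 0.155. Krt17 was 2.703 and 5.18 FPKM in JGESO, a difference of 0.74 that missed the call.

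Tgm3 was 0.203 FPKM without and 4.92 with BMP4 in JGESO, and at most 0.261 in JGE and JGEO. Trp63 was 0.264 and 0.731 in JGESO, 0.0822 and 0.0203 in JGE, and 1.52 and 0.610 in JGEO, its highest value of all and one without BMP4. In JGESO 8 of 18 suprabasal genes were raised, led by Sprr1a (0.192 to 9.92 FPKM), Krtdap and Sprr1b, and 6 of 15 basal adhesion genes, among them Col17a1 (1.00 to 5.07) and Pkp1 (0.271 to 4.28). Of 6 BMP targets, 1 was raised in JGESO, Bambi (5.33 to 23.7), 4 in JGE and 0 in JGEO, where Id1 was 81.1 without and 60.1 with BMP4 and none was lowered. Of 28 other keratins with at least 1 FPKM, 24 were raised, led by Krt33b, Krt85 and Krt87, keratins of the hair shaft.

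Which cells held the RNA was read from single cells of JGES at day 7, with the cell types as the authors annotated them. The BMP4+ sample had 11335 cells (7125 intermediate state, 2372 primitive endoderm-like PrECLCs, 1453 endothelial, 385 placenta-like) with a median of 21205 UMIs. The BMP4- sample had 8685 cells (6211 intermediate state, 1825 pluripotent, 507 endothelial, 142 PrECLCs) with a median of 12738. No type was annotated as keratinocyte. Of the barcodes, 2 occur in both samples. CPM scale a gene's UMIs to the sum of all UMIs in the same cells, and intervals cover counting error only.

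In all cells, 5 of 8 members were raised in the BMP4+ sample on the log2(CPM + 1) scale, against 23.8% of 13395 genes with at least 1 CPM, and none was lowered (6.07%). The median over those genes was 0.47, so the differences are also given less that median: 4.64 for Krt5, 2.09 for Krt14, 2.04 for Dlx3, 1.81 for Tgm3 and 0.66 for Krt6a. Krt5 had 9189 UMIs in BMP4+ cells (34.1 CPM, 95% Poisson interval 33.4 to 34.8) and 2 UMIs in BMP4- cells. Dlx3 had 84.2 CPM against 14.01, a ratio of 6.01 (5.72 to 6.31). Krt14 had 5.18 against 0.0487 CPM, Tgm3 4.72 against 0.179, and Krt6a 1.18 CPM against 0 UMIs, at least 48.5-fold higher with 3 counts as the floor of the BMP4- sample. Krt16 had 37 and 2 UMIs.

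Trp63 and Krt17, which were not called at the pseudocount of 1 in the bulk JGES libraries of day 7, were not called here either. Trp63 had 213 UMIs in BMP4+ and 29 in BMP4- cells, 0.791 against 0.236 CPM, a ratio of 3.36 (2.27 to 5.14), while its bulk day 7 values were 0.204 and 0.221 FPKM. Krt17 had 0.520 against 0.430 CPM over all cells, a ratio of 1.21 (0.875 to 1.69). Of its 53 UMIs in BMP4- cells, 32 were in pluripotent cells, a type that the BMP4+ sample lacks, and within intermediate cells the ratio was 3.20 (2.01 to 5.34).

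**Figure D3:**
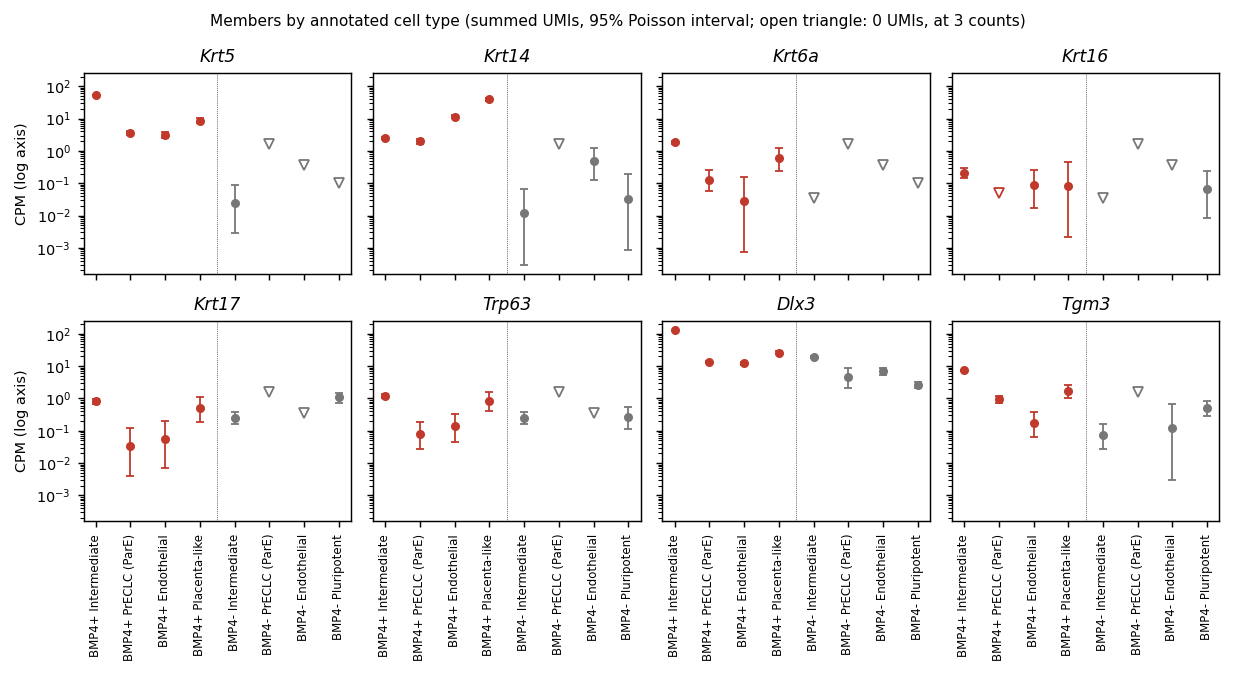
CPM (log axis) of 8 members in each annotated type, BMP4+ in red and BMP4- in gray, with 95% Poisson intervals of the summed UMIs; open triangles mark 0 UMIs, drawn at the CPM of 3 counts. Krt5, Tgm3 and Dlx3 are highest in BMP4+ intermediate cells and Krt14 in BMP4+ placenta-like cells.

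Within the BMP4+ sample, 7 members had their highest CPM in the intermediate cells and Krt14 did not. Krt5 was 54.4 CPM there, 8.67 in placenta-like cells (73 of their 103 UMIs in 1 cell), 3.597 in PrECLCs and 3.09 in endothelial cells. Dlx3 was 131 CPM in intermediate cells and 26.0, 13.6 and 12.2 in the same order. Tgm3 was 7.37, 1.68, 0.944 and 0.172 CPM. Trp63 was 1.20 CPM in intermediate and 0.842 in placenta-like cells, values whose intervals overlap (1.04 to 1.38 and 0.404 to 1.55), and Krt17 (0.807 and 0.505) and Krt16 likewise had overlapping intervals.

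Krt14 had another order, with 39.5 CPM in placenta-like cells (36.0 to 43.2), 11.4 in endothelial, 2.54 in intermediate and 1.97 in PrECLCs. The 10 cells with the most Krt14 held 52.1% of its UMIs in endothelial cells and 38.6% in placenta-like cells. The 22 endothelial cells with at least 5 Krt14 UMIs also had Krt8 at 269 and Krt18 at 662 CPM. Krt14 was detected in 27.01% of placenta-like cells and 1.64% of intermediate cells. Placenta-like cells also had 995 CPM of Krt8 and 1641 of Krt18, against 93.2 and 348 in intermediate cells.

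Shares of cells with a UMI depend on depth, so each cell was also thinned to 4000 UMIs, which left out none. Krt5 was detected in 13.6% of BMP4+ intermediate cells (12.8 to 14.4, exact binomial) and in 3.10% of endothelial cells and 4.13% of PrECLCs, whose median depths were 19594, 21763 and 23772.5 UMIs. After thinning the shares were 7.40%, 0.895% and 0.885%. Endothelial and endoderm-like cells are not known for epidermal keratins, and how much of their share is free RNA was not tested. Some of their cells held many UMIs: 9 PrECLCs had at least 5 of Krt5, and 22 endothelial cells at least 5 of Krt14. Dlx3 was detected in 70.8% of intermediate cells, and in 35.8% after thinning, against 2.68% and 3.04%. For Krt6a, Krt16, Krt17 and Trp63 the shares in intermediate cells were between 0.0983% and 1.43%.

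A few cells carried much of the low members. The 10 cells with the most UMIs held 77.2% of Krt6a UMIs in BMP4+ intermediate cells, 51.3% of Krt14, 24.5% of Tgm3, 11.04% of Krt5 and 1.24% of Dlx3. The highest single cell had 148 UMIs of Krt5 and 91 of Krt6a. Without the 1% of BMP4+ cells with the most member UMIs, Krt5 was 17.8 CPM in place of 34.1 and Krt6a 0.463 in place of 1.18. Against 0 UMIs without BMP4, a Krt6a level under 1 CPM misses the call, so 4 of 8 members were raised without these cells. The Krt6a call was also lost with each cell weighted equally (0.979 CPM).

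At least 2 members had a UMI in 1117 of 7125 BMP4+ intermediate cells, 15.7%, and in 344, 4.83%, after thinning. At least 3 members had a UMI in 179 of 7125 BMP4+ intermediate cells, 2.51% (2.16 to 2.90), and 140 of these had exactly 3. The numbers were 8 of 385 placenta-like cells, 7 of 2372 PrECLCs and 0 of 1453 endothelial cells, where the limit set by 3 counts is 0.207%. In the BMP4- sample it was 1 of 8685 cells. Thinned, 27 intermediate cells of the BMP4+ sample had at least 3. Krt5 and Krt14, the filament partners, were both seen in 49 BMP4+ cells, of 1128 with Krt5 and 355 with Krt14. With at least 5 UMIs, 419 BMP4+ cells had Krt5, 75 had Krt14 and 10 had both, all 10 in the intermediate state.

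Within BMP4+ intermediate cells, thinned, Krt14 was seen in 1.71% of the 527 cells with Krt5 and in 0.364% of the rest. Tgm3 was seen in 5.12% and 1.47%, Trp63 in 2.85% and 0.349%, and Dlx3 in 49.7% and 34.7%. Each listed member was thus seen more often in cells with Krt5. Thinning lowers these shares, so a cell without a UMI is not shown to lack the gene.

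Other genes with the highest CPM ratio in the 194 BMP4+ cells with at least 3 members, over the other 11141 BMP4+ cells, were Fam25c (423 against 26.97 CPM), Krt42 (176 against 11.7), Padi3 (32.1 against 2.26), Acpp, Gm13010, Vsig8, Krt80, Sfn (209 against 22.1), Slc13a5 and S100a16. Padi3 is a peptidylarginine deiminase of the hair follicle. The 194 cells were deeper, with a median of 30238 UMIs against 21107, and 179 of them were intermediate cells, while the others hold all 4 types. The part of cell type, depth or doublets was not tested. Krt71, the root sheath keratin, was 137 CPM in BMP4+ intermediate cells and 0.0721 in those without BMP4, while Krt1 was 0.335 and Col17a1 0.199 CPM in the BMP4+ ones. Col1a1 was 281 CPM in BMP4+ and 38.0 in BMP4- intermediate cells.

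The effect of the SALL4 N-terminus on the members was read from the single-factor libraries, which had no BMP4. In SALL4-delN12 against SALL4-WT, the counts raised and lowered were 1 and 1 of 9 on day 1, 6 and 1 on day 5, 4 and 2 on day 9, and 3 and 3 on day 11. Of all genes tested, 4.18%, 4.67%, 6.09% and 6.55% were raised and 5.63%, 5.19%, 5.75% and 6.58% lowered on those days.

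**Figure D4:**
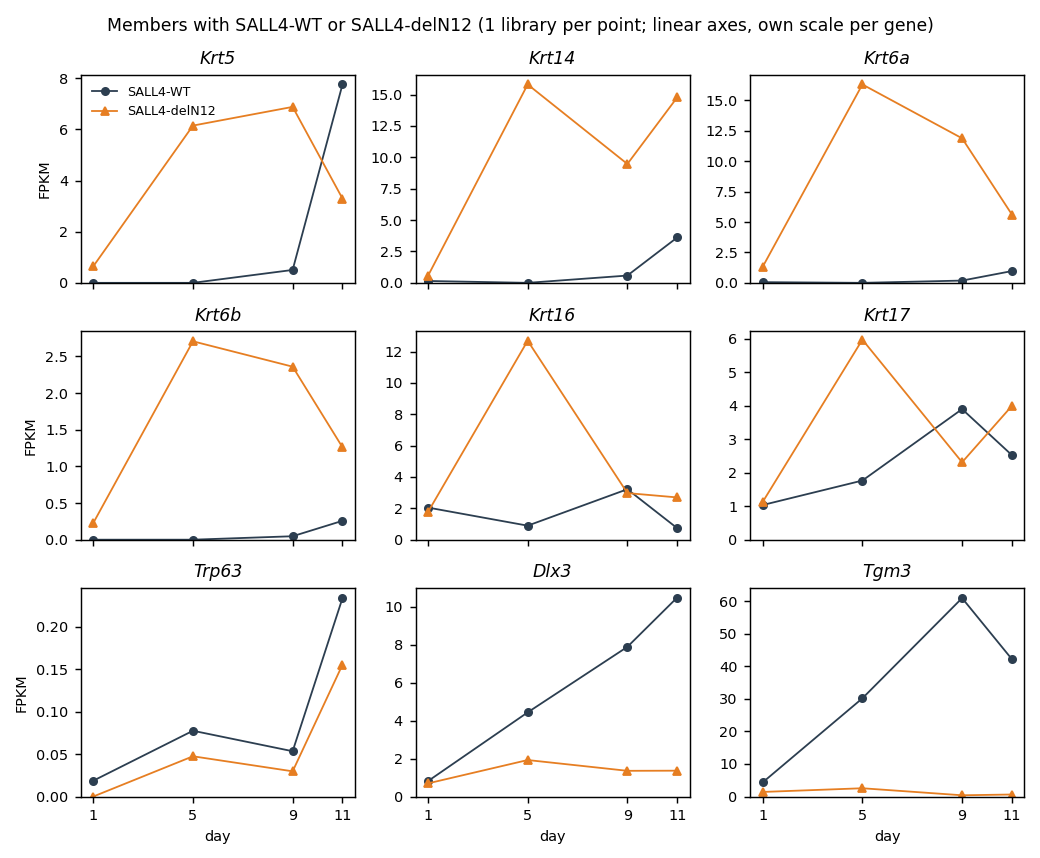
FPKM (linear axis, scaled per gene) of the 9 members against day for SALL4-WT (dark circles) and SALL4-delN12 (orange triangles), 1 library per point. On day 5 Krt14 and Krt6a stood at 15.8 and 16.3 FPKM with SALL4-delN12 and at 0 with SALL4-WT, while Tgm3 reached 61.0 on day 9 with SALL4-WT and 0.387 with SALL4-delN12.

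The members raised on any day were keratins. Krt14 was 0.149, 0, 0.581 and 3.62 FPKM with SALL4-WT on days 1, 5, 9 and 11, and 0.558, 15.8, 9.47 and 14.8 with SALL4-delN12. Krt6a was 0.0569, 0, 0.186 and 0.969 with SALL4-WT, and 1.33, 16.3, 11.9 and 5.62 with SALL4-delN12. For both keratins every SALL4-delN12 value was above that of the same day with SALL4-WT. The share of all genes with the same order on every day was not counted.

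Krt5 was listed at 0 on days 1 and 5 with SALL4-WT, at 0.504 FPKM on day 9 and at 7.76 on day 11. With SALL4-delN12 it was 0.645, 6.15, 6.88 and 3.29, so the difference was 2.84 on day 5 and -1.03 on day 11. Krt16 was 2.05, 0.895, 3.22 and 0.734 with SALL4-WT and 1.76, 12.7, 2.97 and 2.696 with SALL4-delN12, a single high library. Krt17 was between 1.03 and 3.89 with SALL4-WT and between 1.13 and 5.97 with SALL4-delN12. Krt6b was at most 0.257 and 2.71 FPKM. In these libraries Krt14 and Krt6a exceeded Krt5 on days 5, 9 and 11 with SALL4-delN12, the reverse of JGES with BMP4.

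Tgm3 and Dlx3 lay on the other side. Tgm3 was 4.35, 30.2, 61.0 and 42.2 FPKM with SALL4-WT and 1.41, 2.55, 0.387 and 0.625 with SALL4-delN12, with differences of -1.15, -3.14, -5.48 and -4.73. Its SALL4-WT level on day 9 was the highest of Tgm3 in either table. Dlx3 was 0.814, 4.44, 7.89 and 10.49 with SALL4-WT and 0.693, 1.92, 1.36 and 1.36 with SALL4-delN12, and was called lowered on days 9 and 11. All 8 values were below the 30.2 FPKM of the JGES day 0 library. Trp63 was at most 0.234 FPKM in the 8 libraries.

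Of the fixed lists on day 5, 3 of 15 basal adhesion genes were raised and 1 lowered, with Krt15 at 13.4 against 0.738 FPKM. Of 18 suprabasal genes 4 were raised and 1 lowered, led by Krtdap (52.4 against 0 FPKM) and Krt1 (43.7 against 0.273). The balance of this list changed with the day, at 1 raised and 4 lowered on day 1, 3 and 4 on day 9, and 2 and 1 on day 11. On day 9 Krtdap and Krt1 were again raised (22.25 against 0.115 and 13.55 against 0.924 FPKM), while Ivl (1.52 against 12.7) and Sprr1a (1.30 against 8.52) were lowered. On day 5, 8 of 12 simple epithelium genes were raised and 0 lowered, with Krt7 at 104, Krt8 at 166 and Cdh1, E-cadherin, at 16.3 FPKM, against 1.69, 11.3 and 0.558. On the same day BMP targets were lowered in 4 of 6, with Id1 at 214 against 548 FPKM. Of the primitive endoderm genes, only Pth1r was raised on day 5 (4.16 against 1.55 FPKM). On day 11 Gata4 (29.35 against 1.51), Sox17 (16.2 against 0.224), Lama1 (50.2 against 3.38), Pth1r and Dab2 were raised, and Gata6 was not called. The part of epithelial or primitive endoderm cell content in the keratin levels was not tested.

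Over all 17 libraries, the 10 genes whose log2(FPKM + 1) was most like the mean of the members included 3830417A13Rik (Pearson r 0.90), S100a9 (0.90), Ibsp (0.89), Slc18a1 (0.87), Htra3, Nek9, Perp, Cd55 and Rspo4, of 12344 genes with at least 5 FPKM in any library other than the members. These r describe 17 libraries that share time courses, and carry no test. The members as a whole had no single course over these libraries, but some of them went together. Among Krt14, Krt6a, Krt6b, Krt16 and Krt17, r lay between 0.54 (Krt6b and Krt17) and 0.96 (Krt6a and Krt6b). The levels of Krt6a, Krt6b and Krt16 are uncertain, as stated above. The r of Dlx3 with these keratins was negative, from -0.33 (Krt6b) to -0.77 (Krt16) and -0.80 (Krt17). These r pool JGES and single-factor libraries, and Dlx3 was lower in every single-factor library than in any JGES library. Within JGES on day 7, Dlx3 was raised with BMP4 (1.56), as were Krt14 (2.51), Krt6a (2.19), Krt6b (1.75) and Krt16 (1.23). Over the 17 libraries, Krt5 had r of 0.73 with Trp63, 0.43 with Krt14 and -0.01 with Krt17. Trp63 was under 1 FPKM in all 17, so its r rests on values near 0. Its highest were 0.466 and 0.861 FPKM, in JGES with BMP4 on days 3 and 5. On day 7 with BMP4, Krt5 was 63.0 FPKM and Trp63 0.204.

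Open chromatin and SALL4 binding near the members were read from ATAC-seq peaks (MEF, and days 1, 5, 9 and 11 with SALL4-WT or SALL4-delN12) and CUT&Tag peaks (SALL4 and the active mark H3K27ac, day 6). A member was counted where a peak centre lay within 2 kb of an annotated start site. With SALL4-WT, 2, 4, 4 and 3 of 9 members had an ATAC peak on days 1, 5, 9 and 11, where 64.1%, 68.1%, 67.6% and 67.8% of protein-coding genes had a peak. With SALL4-delN12 the counts were 0, 1, 1 and 1 (62.2%, 63.9%, 65.3% and 65.8%), and in MEFs 1 (69.9%), Dlx3. The members' share was below that of protein-coding genes in all 9 ATAC samples at 2 kb, a difference that was not tested. Within 10 kb it turned in 3 of them: with SALL4-WT, 7, 8 and 8 of 9 members had a peak on days 1, 5 and 9, against 74.0%, 76.9% and 76.8% of protein-coding genes.

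**Figure D5:**
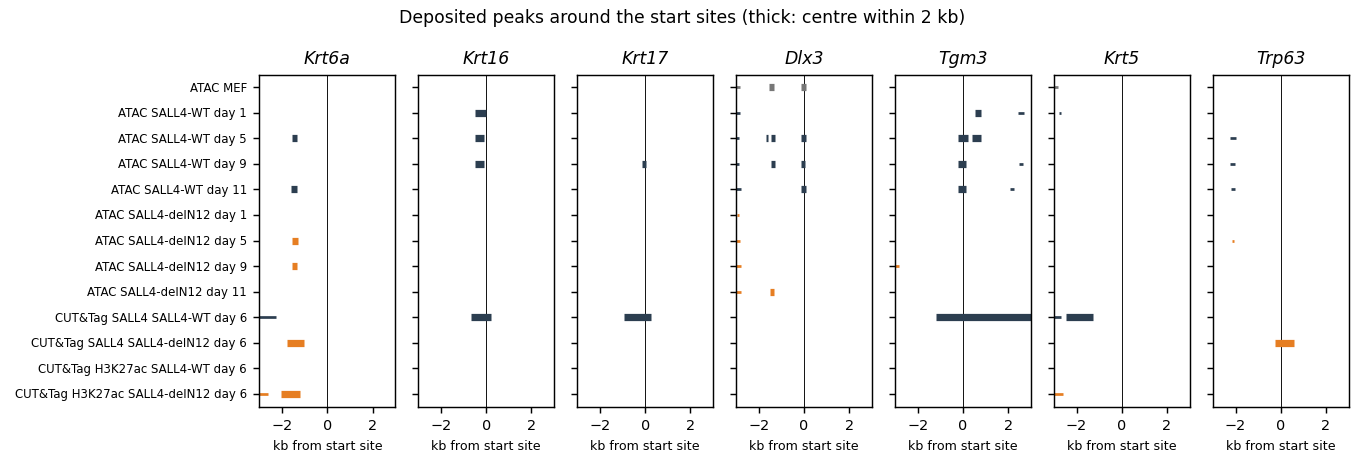
Deposited peaks of each ATAC and CUT&Tag sample (rows) within 3 kb of the start sites of 7 members, along the direction of transcription, SALL4-WT dark, SALL4-delN12 orange, MEF gray; thick bars have their centre within 2 kb. Tgm3 and Krt16 have such peaks with SALL4-WT only; Krt14 and Krt6b had none and are not drawn.

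Tgm3 had an ATAC peak across its start with SALL4-WT on days 5, 9 and 11, at chr2:130012124-130012560, chr2:130012153-130012496 and chr2:130012120-130012483, over the TATAAA shown above. On day 1 the peak was in the first part of the gene, centred at +653 in an intron. SALL4-delN12 had no Tgm3 peak within 2 kb on any day. A SALL4 CUT&Tag peak of 4640 bases covered the start with SALL4-WT, and none was within 2 kb with SALL4-delN12. At 2 kb, the ATAC samples with a peak were those with the higher Tgm3 RNA on each day. With a score of at least 100 a SALL4-WT peak was left on day 5 only, and within 10 kb SALL4-delN12 also had a peak on days 1 and 9.

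Krt16 had an ATAC peak with SALL4-WT on days 1, 5 and 9, centred at -257, -302 and -287 bases from its start, and a SALL4 peak (chr11:100248685-100249576), and neither within 2 kb with SALL4-delN12. On day 5 its RNA was lower in the sample with the peak (0.895 against 12.7 FPKM), and on days 1 and 9 it was slightly higher there (2.05 against 1.76 and 3.22 against 2.97). Krt17 had a SALL4 peak and a day 9 ATAC peak with SALL4-WT only, and Krt5 a SALL4 peak centred at -1871 with SALL4-WT only, all within 2 kb. Within 10 kb, Krt16 and Krt17 also had an ATAC peak with SALL4-delN12 on day 1.

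Dlx3 had a peak at its start in MEFs and with SALL4-WT on days 5, 9 and 11. With SALL4-delN12 only day 11 had a Dlx3 peak within 2 kb, centred at -1410. Within 10 kb both SALL4-WT and SALL4-delN12 had a Dlx3 ATAC peak on all 4 days. With a score of at least 100 it was left in MEFs and with SALL4-WT on day 9 only. Krt6a had a peak centred between -1480 and -1430 with SALL4-delN12 on days 5 and 9 and with SALL4-WT on days 5 and 11, and that stretch also held SALL4 and H3K27ac peaks with SALL4-delN12. For H3K27ac, 1 member had a peak with SALL4-delN12 (59.0% of protein-coding genes) and 0 with SALL4-WT (49.7%). Within 10 kb the numbers were 2 (68.3%) and 3 (57.1%), and no member was left with a score of at least 100 (53.1% and 39.9%). For SALL4, 4 members had one with SALL4-WT (55.4%) and 2, Krt6a and Trp63, with SALL4-delN12 (42.1%). Within 2 kb, Krt14 and Krt6b had none in any sample, and within 10 kb Krt14 had a peak in MEFs, with SALL4-WT on all 4 days and with SALL4-delN12 on days 9 and 11.

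The 200 bases centred on the stretch that the ATAC peaks share are printed for Krt16 (chr11:100249101-100249300, minus strand) and Krt6a (chr15:101695660-101695859, minus strand), as the places where the members' accessibility differed or recurred. Capitals mark the same motifs, and the bases were read from GRCm38.p6.
Krt16: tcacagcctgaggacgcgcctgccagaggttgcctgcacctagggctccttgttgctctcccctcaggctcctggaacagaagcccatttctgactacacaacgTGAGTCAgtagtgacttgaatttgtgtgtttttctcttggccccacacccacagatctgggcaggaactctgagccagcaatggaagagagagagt
Krt6a: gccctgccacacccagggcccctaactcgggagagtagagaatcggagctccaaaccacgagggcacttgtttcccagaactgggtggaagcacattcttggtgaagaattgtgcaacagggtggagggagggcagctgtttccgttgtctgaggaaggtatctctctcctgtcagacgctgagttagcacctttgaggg
The Krt16 stretch holds TGAGTCA, a match to TGANTCA, with its first base at -294 from the start. TGANTCA occurs in 29.2% of the central 200 bases of 98393 SALL4-WT day 5 ATAC peaks. The Krt6a stretch holds none of the 5 motifs.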

How the data were processed

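RNA libraries of 17 conditions, a further table of 8 libraries, 2 single-cell samples and 13 peak lists were used, 1 sample per condition. FPKM values were made and deposited by the authors with Trim Galore 0.6.4, HISAT2 2.2.1 on mm10 and StringTie 2.2.1; the depth behind them is unknown. UMI counts per cell were deposited by the authors after STAR and Scanpy, with their annotation of cells; the label ParE was read as PrECLC. Of 30769 cell columns, 10749 belong to no sample here and were not used. Peak scores were deposited by the authors from MACS 1.4.2 after Bowtie2 2.4.5, and CUT&Tag replicates were merged before calling.

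The members and gene lists were chosen with earlier results of these data known. Changes are differences of log2(FPKM + 1) with a pseudocount of 1 and a call at 1; the background is genes with FPKM of at least 1 in either library. Single-cell values are summed UMIs as CPM with exact Poisson and Clopper-Pearson 95% intervals, and a floor of 3 counts; doublets were not called. Thinning draws 4000 UMIs per cell with a fixed seed. Peaks were compared with GENCODE vM21 start sites (2 kb). The 9 members are always named, with at most 3 called genes per list by size, defining markers, and 10 genes by likeness; other keratins, and genes beyond the rule, were chosen after their values were seen. Scripts (Python 3.11.15, numpy 2.4.6, pandas 2.3.3, scipy 1.17.1, matplotlib 3.10.9) were tested on simulated data. Alternatives were another pseudocount, scaling, filter, threshold, cell selection, peak score and window. Some genes and a sequence that these rules select are not reported here.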

Additional observations from a re-analysis of the deposited data

Results flagged for a closer look

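Krt5 in SALL4-delN12 against SALL4-WT moved in opposite directions between days: the difference of log2(FPKM + 1) was 2.84 on day 5 and -1.03 on day 11, with 1 library per condition and day. The difference between the days was not tested. Krt5 was listed at 0 with SALL4-WT on day 5 and stood at 7.76 FPKM on day 11, while with SALL4-delN12 it was 6.15 and 3.29.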

How the results depend on the processing

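No paired analysis by replicate was made, since every condition has 1 sample. The days could serve as pairs, and a fit with the day as a block was not run. Median-ratio scaling changed none of the 99 member calls in the bulk comparisons, and the second-table copies of JGES day 7 changed none of 9. Keeping only members that reached 1 FPKM in either library left 55 of 99 values. This filter alters no value that it keeps, so no call among them could change. A pseudocount of 0.1 changed 18 of 99 calls: raised counts became 1, 2 and 7 on JGES days 1, 3 and 5, 4 in JGE, 3 in JGEO, and 4 on day 1 of SALL4-delN12, and 2 members were lowered there on day 5. It also made Tgm3 lowered on JGES day 1 (-1.34) and Trp63 lowered in JGEO (-1.19). Krt17 became raised on JGES day 7 (2.46), Trp63 in JGESO (1.19) and Krt6b on day 11 of SALL4-delN12 (1.26 against 0.257 FPKM). The share of all genes is given for the pseudocount of 1 and the call at 1 only. A call at 2 also changed 18 of 99 calls. It left 2 and 4 raised on JGES days 5 and 7, 1 in JGE and 0 in JGEO. For SALL4-delN12 it left 0 raised on days 1 and 11, and 0 and 1 lowered on days 1 and 9. Calls were also lost for Dlx3 in JGESO (1.60) and, with SALL4-delN12, for Krt6b (1.89) and Krt17 (1.33) on day 5. Krt6b on day 9 (1.68) and the lowered Krt5 of day 11 (-1.03) were lost as well. The summed CPM of 8 members was 131 in BMP4+ and 14.9 in BMP4- cells. It became 136 and 16.6 with cells weighted equally, and 110.1 and 11.3 without the 1% of cells with the most member UMIs. The share of cells with at least 3 members, 1.71% and 0.0115%, became 0.238% and 0 after thinning, 11.2% and 0.150% at 2 members, and 0.344% and 0 at 4. Summed over 4 days, ATAC members numbered 13 with SALL4-WT and 3 with SALL4-delN12. With a score of at least 100 these became 6 and 0, where 54.7% to 63.0% of protein-coding genes had a peak in each sample. Within 10 kb they became 29 and 20, where 74.0% to 76.9% of protein-coding genes did. Within 10 kb, MEFs had 4 members (79.5% of protein-coding genes). H3K27ac had 2 with SALL4-delN12 (68.3%) and 3 with SALL4-WT (57.1%). SALL4 had 2 with SALL4-delN12 (59.6%) and 7 of 9 with SALL4-WT (70.1%). The members' share for SALL4 with SALL4-WT was thus above that of protein-coding genes within 10 kb and below it at 2 kb. With a score of at least 100, H3K27ac and SALL4 had 0 with SALL4-delN12 (53.1% and 29.1% of protein-coding genes). The cause of these shifts was not tested.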

Other observations

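The 10 BMP4+ cells with at least 5 UMIs of both Krt5 and Krt14, chosen after their values were seen, stood apart in the p63 gene. They held 23 Trp63 UMIs, in 7 of 10 cells, and a Trp63 level of 104 CPM. The 419 cells with at least 5 UMIs of Krt5 held 79 Trp63 UMIs in 31 cells, 6.96 CPM, and this count includes the 10. The 19 intermediate cells with at least 5 UMIs of Krt14, which also include the 10, held 25 Trp63 UMIs in 8 cells, 54.5 CPM. The 22 endothelial cells with at least 5 UMIs of Krt14 held no Trp63 UMI. The 10 cells also differed from the 419 in other genes, with Krt8 at 854 against 217 CPM, Krt71 at 9.04 against 241 and Col1a1 at 470 against 206. Their median depth was 13634 UMIs, under that of the 419 (24179).

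The ratio of Krt5 to Dlx3 UMIs was 0.415 in BMP4+ intermediate cells, 0.254 in endothelial cells, 0.265 in PrECLCs and 0.333 in placenta-like cells, where 1 cell held 73 of the 103 Krt5 UMIs, and the ratio of Krt14 to Dlx3 UMIs was 0.0194, 0.934, 0.145 and 1.52 in the same types.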
